A study of Caenorhabditis elegans with 11 samples.

Results

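The ATP-binding cassette (ABC) transporter genes of Caenorhabditis elegans were examined in RNA from whole adult worms. Members were the rows of the count tables whose gene symbol starts with pgp, mrp, haf, abt, wht, pmp or abcf followed by a number, which gave 51 of 42048 genes. The 51 genes comprised 14 pgp, 8 mrp, 8 haf, 5 abt, 8 wht, 5 pmp and 3 abcf genes. The 11 libraries came from 5 groups, each grown at 16 °C on its bacteria from the embryo on, with about 150 pooled adults per sample. The groups were late ahr-1(ia3) mutants on K12 (n = 2), late N2 worms on tnaA (n = 2), late N2 worms on K12 (n = 2), early N2 worms on tnaA (n = 2) and early N2 worms on K12 (n = 3). N2 is the wild-type strain and ia3 a loss-of-function allele of the aryl hydrocarbon receptor gene, carried in every cell. Escherichia coli K12 releases indole, whereas the tnaA bacteria derive from K12 and have lost tryptophanase, the enzyme behind it. Late worms were 12 days old, whereas the labels give 3 days and the design text gives 2 days for early worms.

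ABC proteins use the energy of ATP to move substrates across membranes. In C. elegans the pgp genes code for P-glycoproteins, full transporters known for exporting drugs and bacterial toxins from cells, many of them in the intestine. The mrp genes code for multidrug resistance proteins, which carry conjugated compounds, heme and other organic anions. The haf genes code for short transporters that work as pairs, mostly in membranes of mitochondria, lysosomes and gut granules, and the abt and wht genes for relatives of the mammalian ABCA and ABCG lipid transporters. The pmp genes code for peroxisomal membrane and related transporters of the ABCD family. The abcf genes code for proteins with ATP-binding cassettes but no membrane domain, which act with ribosomes.

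Gene counts per library were between 8310145 and 15307891 reads, with the fewest in late tnaA replicate 3. Reads outside genes were 13.8 and 11.6% in late ahr-1 libraries, 9.26 and 14.8% in late tnaA libraries, 8.56 and 8.27% in late K12 libraries and 6.14 to 7.19% in early libraries, so that they moved with the late contrasts and with age. Their part in the results was not tested. The scaling factors of the trimmed mean of M values (TMM) were 1.14 to 1.17 in late libraries and 0.82 to 0.877 in early ones, and all levels are CPM, counts brought to a common library total with these factors. The early tnaA library of replicate 2 and the early K12 library of replicate 3 stood apart in sperm transcripts, and early K12 replicates 2 and 3 in some cuticle genes. The collagen gene sqt-3 had 70.4 and 90.7 CPM in these, against 19.7 to 27.4 CPM in the other early libraries. Of 11 hypodermis markers tested, 9 lay below 0 in early tnaA over early K12 worms (median −0.69), none of them called, while the list summed to 4900 to 5040 CPM in early tnaA worms, against 4490 to 4890 CPM in early K12 worms. Their part in the early results was not tested. The sum of 16 sperm marker genes was 91.8 CPM in early tnaA replicate 2 and 84.5 CPM in early K12 replicate 3, against 23.4 to 38.7 CPM in the other early libraries. The ahr-1 gene had 1.59 and 1.03 CPM in ahr-1 mutants, against 3.2 and 2.12 CPM in late N2 worms on K12 (log2 fold change −1.03 ± 0.47, adjusted p = 0.13). These reads do not check the genotype, since the labels do not say which exons the allele removes, if any. Marker genes of intestine, germline, body wall muscle and neurons had reads in every group.

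Together, the 51 genes held 2912 to 2995 CPM in late ahr-1 worms, 3065 to 3094 CPM in late tnaA worms, 3033 to 3046 CPM in late K12 worms, 3339 to 3452 CPM in early tnaA worms and 3108 to 3354 CPM in early K12 worms. Without TMM scaling the order of the ages was the reverse, with 0.333 to 0.358% of gene counts in late libraries and 0.273 to 0.284% in early ones. Of the 51 genes, 49 passed the filter on low counts and were tested. The gene haf-8 had 0 to 0.118 CPM and was not tested. The gene abt-6 had no read in any library, which allows up to 0.172 to 0.309 CPM per library (3 counts), and it was not tested either.

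**Figure D1:**
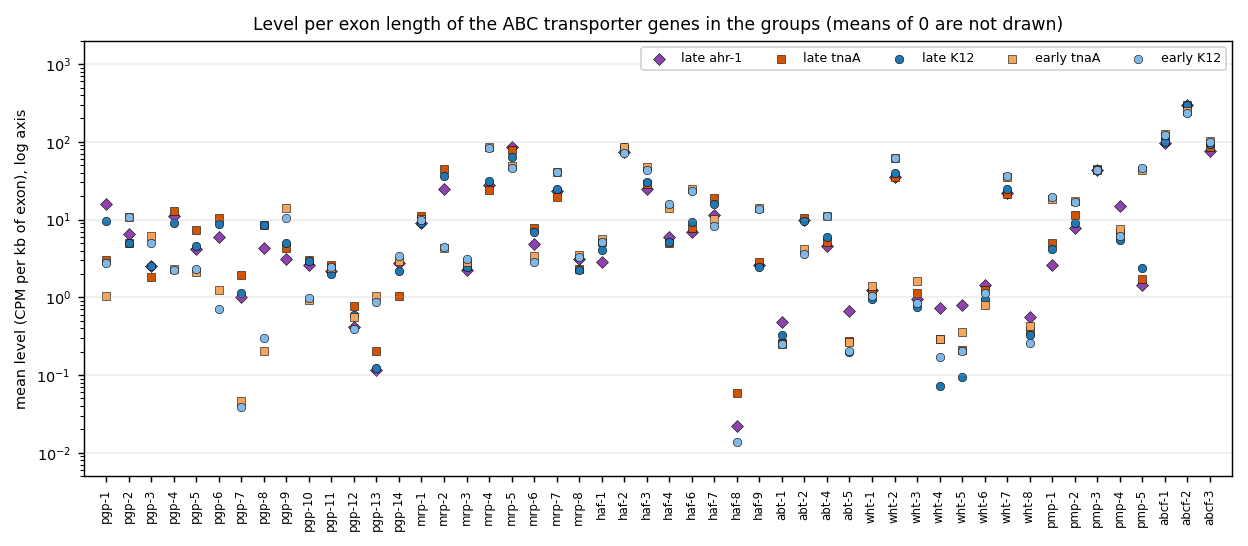
Mean level of each ABC transporter gene in the 5 groups, in CPM per kb of exon on a log axis, with late groups listed before early ones. The gene abcf-2 is highest in every group, at 236 to 297 CPM per kb.

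Levels per kb of exon put the ribosome-associated abcf genes first. The level of abcf-2 was 297 ± 9.07 CPM per kb in late ahr-1 worms, 295 ± 5.56 in late tnaA worms, 297 ± 4.98 in late K12 worms, 252 ± 2.34 in early tnaA worms and 236 ± 6.43 in early K12 worms (SD). It ranked first in all 5 groups among the 50 genes with an exon length, and abcf-1 ranked second. The heme exporter gene mrp-5 ranked 3, 5 and 5 in late ahr-1, late tnaA and late K12 worms, and 7 in both early groups. The P-glycoprotein gene pgp-1 stood lower, at 15.8 ± 0.795 CPM per kb in late ahr-1 worms, 3.01 ± 0.276 in late tnaA worms, 9.48 ± 0.311 in late K12 worms, 1.04 ± 0.169 in early tnaA worms and 2.8 ± 0.416 in early K12 worms. Its rank was 13 in late ahr-1 worms, 30 in late tnaA worms, 15 in late K12 worms, 38 in early tnaA worms and 32 in early K12 worms.

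pgp-1 codes for a P-glycoprotein known from intestinal cells, where it takes part in resistance to heavy metals and bacterial toxins. It had 62.5 and 67.1 CPM in late ahr-1 worms, 13.1 and 11.5 CPM in late tnaA worms, 39.7 and 37.9 CPM in late K12 worms, 4.73 and 3.75 CPM in early tnaA worms, and 13.2, 11.4 and 9.8 CPM in early K12 worms. The ranges of the late ahr-1, late K12 and early tnaA libraries overlapped no other group, whereas late tnaA libraries lay among the early K12 ones. In reads, these levels rest on 748 and 909 reads in late ahr-1 libraries, 223 and 112 in late tnaA libraries, 695 and 626 in late K12 libraries, 61 and 46 in early tnaA libraries, and 126 to 159 in early K12 libraries.

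**Figure D2:**
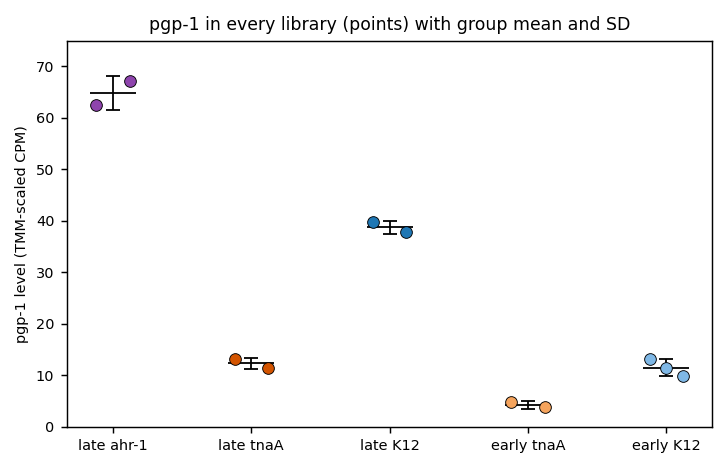
Level of pgp-1 in each of the 11 libraries (points, TMM-scaled CPM) with the mean and SD of each group. The late ahr-1 libraries are highest, at 62.5 and 67.1 CPM, and the early tnaA libraries lowest, at 4.73 and 3.75 CPM.

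In early adults, pgp-1 was lower on tnaA than on K12, with no overlap between the libraries. The log2 fold change of early tnaA over early K12 worms was −1.43 ± 0.16, which is 2.69-fold lower on tnaA (edgeR quasi-likelihood test, Benjamini-Hochberg adjusted p = 0.00297, 95% interval −1.78 to −1.08). The other gene called lower in this contrast was pqn-32 (−3.47 ± 0.51). In late adults the log2 fold change of tnaA over K12 worms was −1.64 ± 0.12 (adjusted p = 4.47e-05, interval −1.90 to −1.37). The late and early differences were not told apart: the change with age on tnaA minus that on K12 was −0.21, with an interval of −0.67 to 0.25. The early call did not hold when the early libraries were fitted alone (−1.43, adjusted p = 0.126) or without early tnaA replicate 3 (−1.28, adjusted p = 0.106), while the late call held in all 19 alternatives. Without both early libraries rich in sperm transcripts the early value was −1.71 (adjusted p = 0.00661) and the call held.

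In ahr-1 mutants pgp-1 lay above late N2 worms on the same bacteria, opposite in direction to the change on tnaA. The log2 fold change of late ahr-1 over late N2 worms on K12 was 0.74 ± 0.10, a 1.67-fold higher level (adjusted p = 0.000499, interval 0.52 to 0.96). This contrast and that of late tnaA over late K12 share the late K12 libraries. With age, pgp-1 rose on both bacteria, by a log2 fold change of 1.76 ± 0.11 on K12 (3.39-fold, adjusted p = 8.33e-09) and 1.55 ± 0.17 on tnaA (2.93-fold, adjusted p = 2.13e-06). The ahr-1 and ageing calls also held in all 19 alternatives.

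The genes whose log2 CPM followed that of pgp-1 most closely over the 11 libraries were fbxb-33 (Pearson r = 0.949), lips-11 (0.938), cyp-13A5 (0.938), aat-8 (0.932) and fkh-5 (0.928), among 12828 genes averaging 1 CPM or more. These r values describe libraries that fall into 5 groups. The cytochrome P450 gene cyp-13A5 had 108 and 98.8 CPM in late ahr-1 worms, 32.8 and 30 in late tnaA worms, 59.2 and 72.5 in late K12 worms, 6.28 and 5.87 in early tnaA worms and 9.08, 9.93 and 8.33 in early K12 worms. The lipase gene lips-11 averaged 22 ± 9.28, 3.53 ± 0.765, 17.5 ± 3.91, 0.198 ± 0.049 and 0.461 ± 0.263 CPM in the same order of groups. In late tnaA worms, against late K12 worms, the other 3 had higher means, at 1.61 against 1.5 CPM for fbxb-33, 1.71 against 1.06 CPM for aat-8 and 1.88 against 1.71 CPM for fkh-5. The genes were chosen for their likeness to pgp-1, and the late ahr-1 and late K12 libraries of lips-11 overlapped. Among ABC genes, pgp-10 (0.839), pmp-4 (0.769) and abcf-2 (0.755) were nearest.

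In late adults on tnaA against late adults on K12, 5 of the 49 tested ABC genes were higher (10.2%) and 6 lower (12.2%). Over all 15133 genes tested, 4.27% were higher and 5.85% lower, 10.1% in all. The median log2 fold change was 0.11 over the ABC genes and 0.06 over all genes. The calls fell in pgp (2 higher and 3 lower of 14), mrp (2 and 2 of 8), wht (0 and 1 of 8) and pmp (1 and 0 of 5), with none among the tested haf, abt and abcf genes. In bulk RNA of whole worms, fewer cells of a type and less RNA per cell cannot be told apart.

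Of the P-glycoprotein genes, pgp-3, which is known with pgp-1 for resistance to toxins, had 7.01 and 7.31 CPM in late tnaA worms, against 9.78 and 10.2 CPM in late K12 worms. It was lower on tnaA in both libraries, with a log2 fold change of −0.48 ± 0.13 (adjusted p = 0.0398). Its neighbour pgp-4 was higher, with 49.6 and 56.1 CPM in late tnaA worms, against 38.8 and 36.6 CPM in late K12 worms (0.48 ± 0.09, adjusted p = 0.0121). The genes lie side by side in the annotation and were called in opposite directions.

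The gene pgp-5, which is known to be needed for resistance to infection and heavy metals, had 22.9 and 35.3 CPM in late tnaA worms, against 18.8 and 17.6 CPM in late K12 worms (0.65 ± 0.18, adjusted p = 0.0367). It was higher in both tnaA libraries, which themselves lay well apart. The gene pgp-14, known from the pharynx, had 4.07 and 4.94 CPM in late tnaA worms, against 10.9 and 7.81 CPM in late K12 worms. With a log2 fold change of −1.08 ± 0.22 (adjusted p = 0.0134) it was the ABC gene with the largest fall after pgp-1 among those called.

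The mrp and other changes were smaller. The heme exporter gene mrp-5 had 379 and 356 CPM in late tnaA worms, against 295 and 302 CPM in late K12 worms (0.30 ± 0.06, adjusted p = 0.0126), and mrp-2 was higher as well (0.27 ± 0.07, adjusted p = 0.0245). The gene mrp-4, known for a role in gut granule formation, had 123 and 123 CPM in late tnaA worms, against 163 and 153 CPM in late K12 worms (−0.36 ± 0.09, adjusted p = 0.0296). The gene mrp-7, known for methylmercury tolerance, was also lower (−0.33 ± 0.09, adjusted p = 0.0329). Outside these families, wht-7 was lower (−0.23 ± 0.07, adjusted p = 0.0481) and the peroxisomal pmp-2 higher (0.34 ± 0.09, adjusted p = 0.0393).

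Apart from that of pgp-1, these calls depended on single libraries. Without late tnaA replicate 3, 1 of the 11 genes kept its call (all genes: 0.16% called). Without late K12 replicate 1 it was also 1 (0.373%), without late tnaA replicate 2 it was 3 (2.99%) and without late K12 replicate 3 it was 3 (4.59%). Without early K12 replicate 2, the number of ABC genes called higher was 3, with 7.9% of all genes called higher or lower. pgp-1 was called in each of these fits. All 18 germline markers were lower in this contrast, with sums of 6410 to 6740 CPM in late tnaA worms, against 8550 to 9090 CPM in late K12 worms. Of 19 intestine markers, 4 were higher and 0 lower, with sums of 1830 to 1930 CPM in late tnaA worms, against 1400 to 1670 CPM in late K12 worms. Of 16 neuron markers 2 were higher and 0 lower, with sums of 871 to 896 CPM in late tnaA worms, against 753 to 783 CPM in late K12 worms. The part of these markers in the ABC gene differences was not tested.

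In early adults on tnaA against early adults on K12, 0 of the 49 ABC genes were higher and 1 was lower (2.04%), that gene being pgp-1. Over all genes, 8 were higher (0.0529%) and 2 lower (0.0132%), 0.0661% in all. This background was 18 higher and 187 lower (1.36%) without early K12 replicate 1, 0.286% without early K12 replicate 3, 1.76% with no filter on low counts and 0.582% with DESeq2, and no gene was called with the early libraries alone. At an unadjusted p under 0.05, 1143 genes and 10 ABC genes passed. The fit with no filter on low counts called 2 ABC genes higher, and the other alternatives, DESeq2 included, called 0. The median log2 fold change was 0.06 over the ABC genes and 0.00 over all genes.

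**Figure D3:**
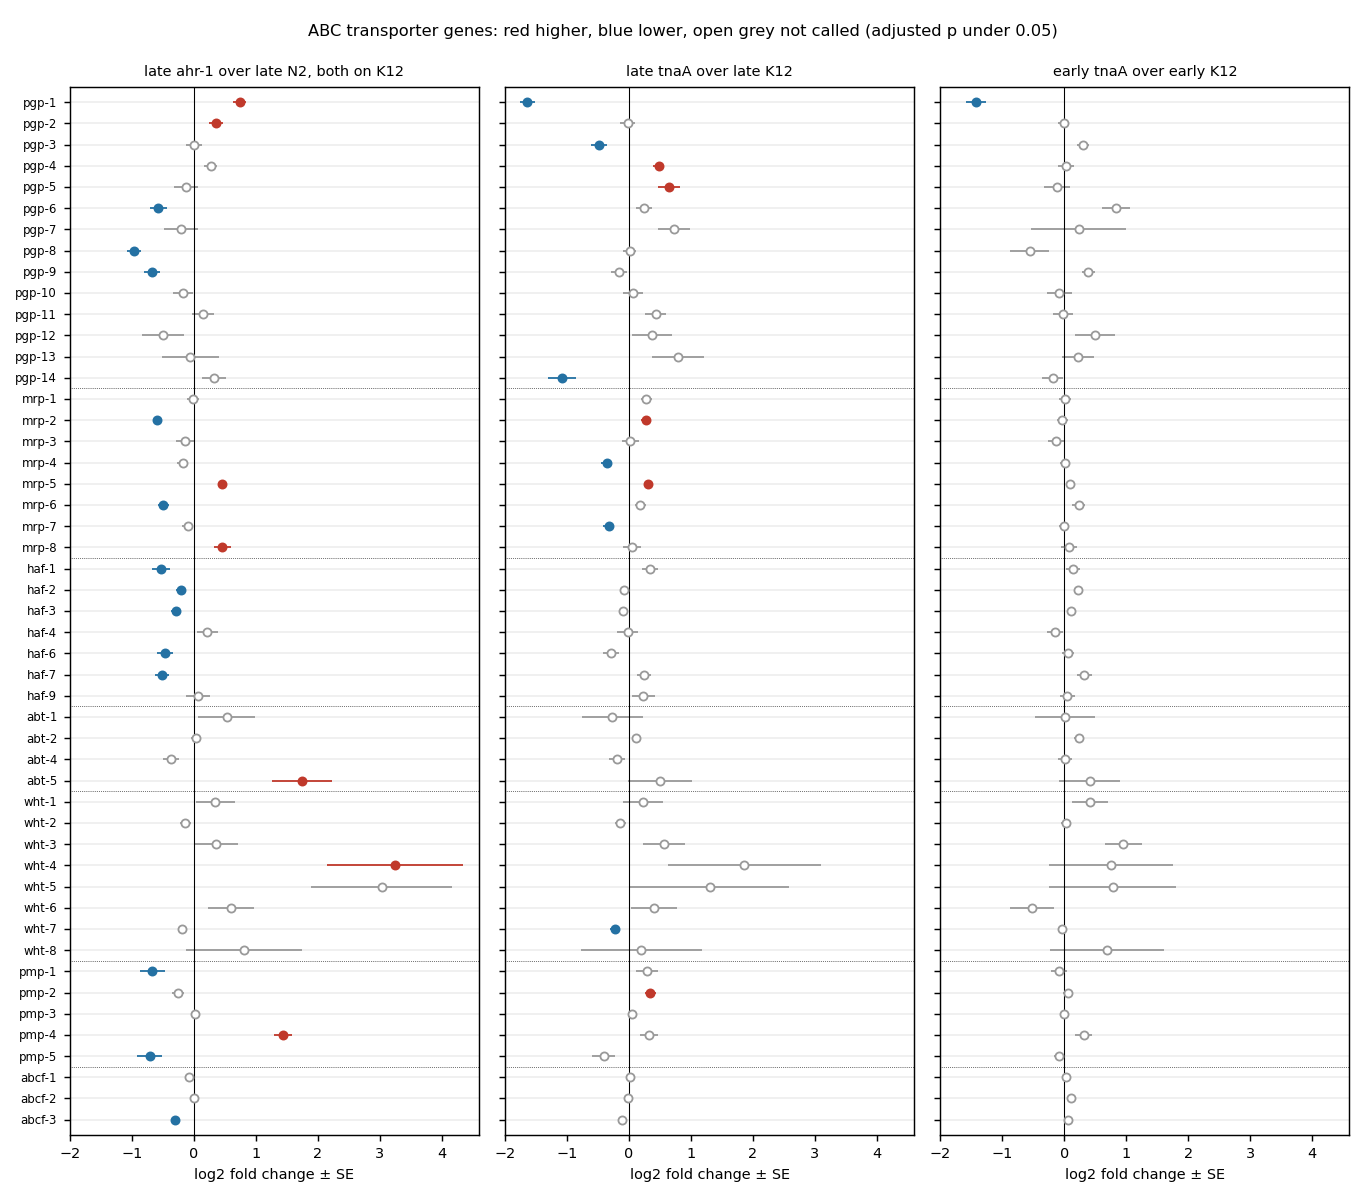
Log2 fold change with standard error of the 49 tested ABC genes for late ahr-1 over late N2 worms on K12, late tnaA over late K12 worms and early tnaA over early K12 worms. Filled points passed an adjusted p of 0.05, and pgp-1 is the only filled point in the panel of early worms.

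In late ahr-1 mutants against late N2 worms on K12, 7 of the 49 ABC genes were higher (14.3%) and 13 lower (26.5%). Over all genes, 12.3% were higher and 12.2% lower, 24.4% in all, and the median log2 fold changes were −0.07 for the ABC genes and 0.00 for all genes. The haf genes were the family with the most falls, 5 of 7 tested and none higher. Of the 20 calls, 11 or 12 were kept when either of the late ahr-1 libraries or either of the late K12 libraries was left out. The share of all genes called was then 12.5% with late ahr-1 replicate 1 left out, 17.8% with replicate 3 of that group, 8.9% with late K12 replicate 1 and 14.5% with replicate 3 of that group. The 9 genes pgp-1, pgp-8, pgp-9, mrp-2, mrp-5, mrp-6, haf-7, pmp-4 and abcf-3 kept their call in all 19 alternatives.

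The gene pmp-4 had 33.9 and 35.9 CPM in late ahr-1 worms, against 12.4 and 13.3 CPM in late K12 worms. This was a 2.71-fold higher level (log2 fold change 1.44 ± 0.14, adjusted p = 6.09e-05). Its libraries in the other groups lay between 11.4 and 18.5 CPM, so the late ahr-1 libraries stood above all others. The other pmp genes were not called in this direction: pmp-1 was lower (−0.67 ± 0.20, adjusted p = 0.0288), and so was pmp-5 (−0.71 ± 0.20, adjusted p = 0.0219). The pmp-1 call was lost in 4 of 19 alternatives and the pmp-5 call in 3. The genes pmp-2 (interval −0.46 to −0.04) and pmp-3 were not called.

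Among 16 genes of peroxisome formation and fatty acid shortening, 6 were higher and 2 lower in ahr-1 mutants. Over all genes, 12.3% were higher and 12.2% lower. The called genes of the list included the thiolase gene daf-22 (0.71 ± 0.09, adjusted p = 0.000332), maoc-1 (0.66 ± 0.10, adjusted p = 0.000763) and the peroxisomal catalase gene ctl-2 (0.61 ± 0.10, adjusted p = 0.00102). In late tnaA against late K12 worms 6 of the 16 were higher and 1 lower, against 4.27% and 5.85% of all genes. Those higher included prx-11 (0.57 ± 0.14, adjusted p = 0.0273), daf-22 (0.38 ± 0.10, adjusted p = 0.0278) and dhs-28 (0.39 ± 0.10, adjusted p = 0.0278). In that contrast pmp-4 had a log2 fold change of 0.32 ± 0.15 with an interval of −0.01 to 0.65 and was not called.

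Of the P-glycoprotein genes, pgp-8 had 17 and 17.3 CPM in late ahr-1 worms, against 35.2 and 31.5 CPM in late K12 worms, with a log2 fold change of −0.96 ± 0.11 (adjusted p = 0.000185). The gene pgp-9 had 11.4 and 13.2 CPM in late ahr-1 worms, against 19.4 and 20.1 CPM in late K12 worms (−0.68 ± 0.13, adjusted p = 0.0034), and pgp-6 was also lower (−0.57 ± 0.14, adjusted p = 0.0104). Besides pgp-1, the gut granule gene pgp-2 was higher (0.36 ± 0.11, adjusted p = 0.0325). Thus ahr-1 mutants had more pgp-1 and less of 3 other genes of the same family.

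Of the mrp genes, mrp-2 had 121 and 111 CPM in late ahr-1 worms, against 175 and 175 CPM in late K12 worms (−0.59 ± 0.07, adjusted p = 0.000164). The gene mrp-6 was lower too, at 22.2 and 21.5 CPM in late ahr-1 worms, against 31.4 and 30.1 CPM in late K12 worms (−0.49 ± 0.09, adjusted p = 0.00224). The heme exporter gene mrp-5 was higher, at 432 and 389 CPM in late ahr-1 worms, against 295 and 302 CPM in late K12 worms (0.46 ± 0.06, adjusted p = 0.000324), and mrp-8 was higher as well (0.46 ± 0.14, adjusted p = 0.0323). mrp-5 was thus higher both in ahr-1 mutants and on tnaA, whereas mrp-2 was lower in ahr-1 mutants and higher on tnaA, each set against the same late K12 libraries.

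Of the 5 heme trafficking genes tested beside mrp-5, 3 were lower in ahr-1 mutants and none higher, against 12.2% of all genes lower. The 3 were the heme transporter genes hrg-1 (−0.53 ± 0.09, adjusted p = 0.00133) and hrg-4 (−0.95 ± 0.28, adjusted p = 0.0248), and hrg-3, which carries heme between tissues (−1.35 ± 0.39, adjusted p = 0.0223). On tnaA in late worms, 1 of the 5 was higher, hrg-1 (0.37 ± 0.08, adjusted p = 0.0188), against 4.27% of all genes.

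Of the haf genes, haf-7 had 33.9 and 32 CPM in late ahr-1 worms, against 46.7 and 47.3 CPM in late K12 worms (−0.51 ± 0.11, adjusted p = 0.00693). The mitochondrial peptide exporter gene haf-1, known from the mitochondrial stress response, had 6.01 and 5.91 CPM in late ahr-1 worms, against 8.92 and 8.29 CPM in late K12 worms (−0.53 ± 0.14, adjusted p = 0.0168). The other falls were in haf-3 (−0.29 ± 0.08, adjusted p = 0.0218), haf-6, known for a role in RNA interference (−0.46 ± 0.13, adjusted p = 0.025), and haf-2 (−0.21 ± 0.07, adjusted p = 0.0439). The gut granule genes haf-4 and haf-9 were not called. Of the abcf genes, abcf-3, which acts with gcn-1 in promoting cell death, was lower, at 192 and 178 CPM in late ahr-1 worms, against 229 and 227 CPM in late K12 worms (−0.30 ± 0.06, adjusted p = 0.00489).

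A further pair of calls in ahr-1 mutants was in genes with few reads, wht-4 and abt-5. The wht-4 call was lost in 8 of 18 alternatives, DESeq2 among them, and the abt-5 call in 3 of 18. The gene wht-4 had 1.17 and 1.77 CPM in late ahr-1 worms (14 and 24 reads), against 0.229 and 0.0605 CPM in late K12 worms (4 and 1 reads), with a log2 fold change of 3.25 ± 1.10 (adjusted p = 0.0416). The gene abt-5 had 2.76 and 3.77 CPM in late ahr-1 worms, against 1.26 and 0.666 CPM in late K12 worms (1.75 ± 0.48, adjusted p = 0.0184). The gene wht-5, at 1.42 and 2.07 CPM in late ahr-1 worms, against 0.172 and 0.242 CPM in late K12 worms, was not called (3.03 ± 1.14, adjusted p = 0.0655).

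**Figure D4:**
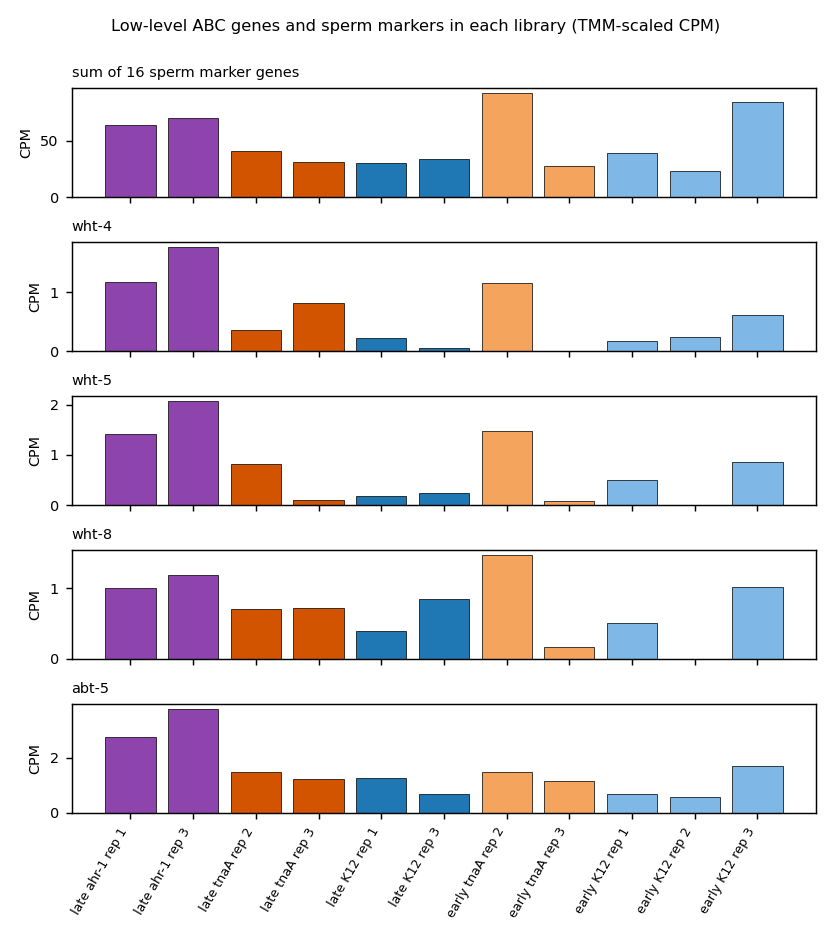
Summed level of 16 sperm marker genes and levels of wht-4, wht-5, wht-8 and abt-5 in each library, in TMM-scaled CPM. The late ahr-1 libraries, early tnaA replicate 2 and early K12 replicate 3 have the 4 highest sperm sums, from 63.5 to 91.8 CPM, and also the highest wht-5, wht-8 and abt-5 levels, where early tnaA replicate 2 ties with late tnaA replicate 2 for abt-5.

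Sperm markers were also higher in ahr-1 mutants. Their sum was 63.5 and 70 CPM in late ahr-1 worms, against 30.5 and 33.6 CPM in late K12 worms, with 9 of the 12 tested higher and none lower in ahr-1 mutants. Of the 16 markers, 1 was at 0 in late ahr-1 worms and 4 in late K12 worms. In the same early libraries that were rich in sperm transcripts, wht-5 had 1.47 CPM (early tnaA replicate 2) and 0.856 CPM (early K12 replicate 3), against 0 to 0.5 CPM in the other early libraries. The gene wht-4 had 1.16 and 0.623 CPM in these libraries, but also 0.824 CPM in late tnaA replicate 3, whose sperm sum was 31.2 CPM. The part of sperm transcripts in the higher levels of wht-4 and abt-5 was not tested. Germline markers were lower in 17 of 18 genes, with sums of 6210 to 7420 CPM in late ahr-1 worms, against 8550 to 9090 CPM in late K12 worms. Over all genes, 12.2% were lower. Hypodermis markers were lower in 4 and higher in 1 of 11, with sums of 376 to 480 CPM in late ahr-1 worms, against 550 to 604 CPM in late K12 worms. Of 19 intestine markers 4 were higher and 3 lower, and of 16 neuron markers 1 was higher and 5 lower. The part of these markers in the ABC gene differences was not tested.

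Between early and late adults most ABC genes changed, as did most genes. On K12, 14 of the 49 ABC genes were higher in late worms (28.6%) and 21 lower (42.9%), against 32.9% higher and 36.7% lower over all genes, 69.6% in all. On tnaA, 13 were higher (26.5%) and 20 lower (40.8%), against 35.6% and 36.3% over all genes, 72% in all. The shares of ABC genes called were 71.4% on K12 and 67.3% on tnaA, near those of all genes. The median log2 fold change was −0.27 on K12 and −0.17 on tnaA over the ABC genes, and −0.04 and 0.02 over all genes. These 2 contrasts share no library. Without both early libraries rich in sperm transcripts, 15 ABC genes were higher and 20 lower on tnaA (64.9% of all genes called), and 14 higher and 22 lower on K12 (65.6%).

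**Figure D5:**
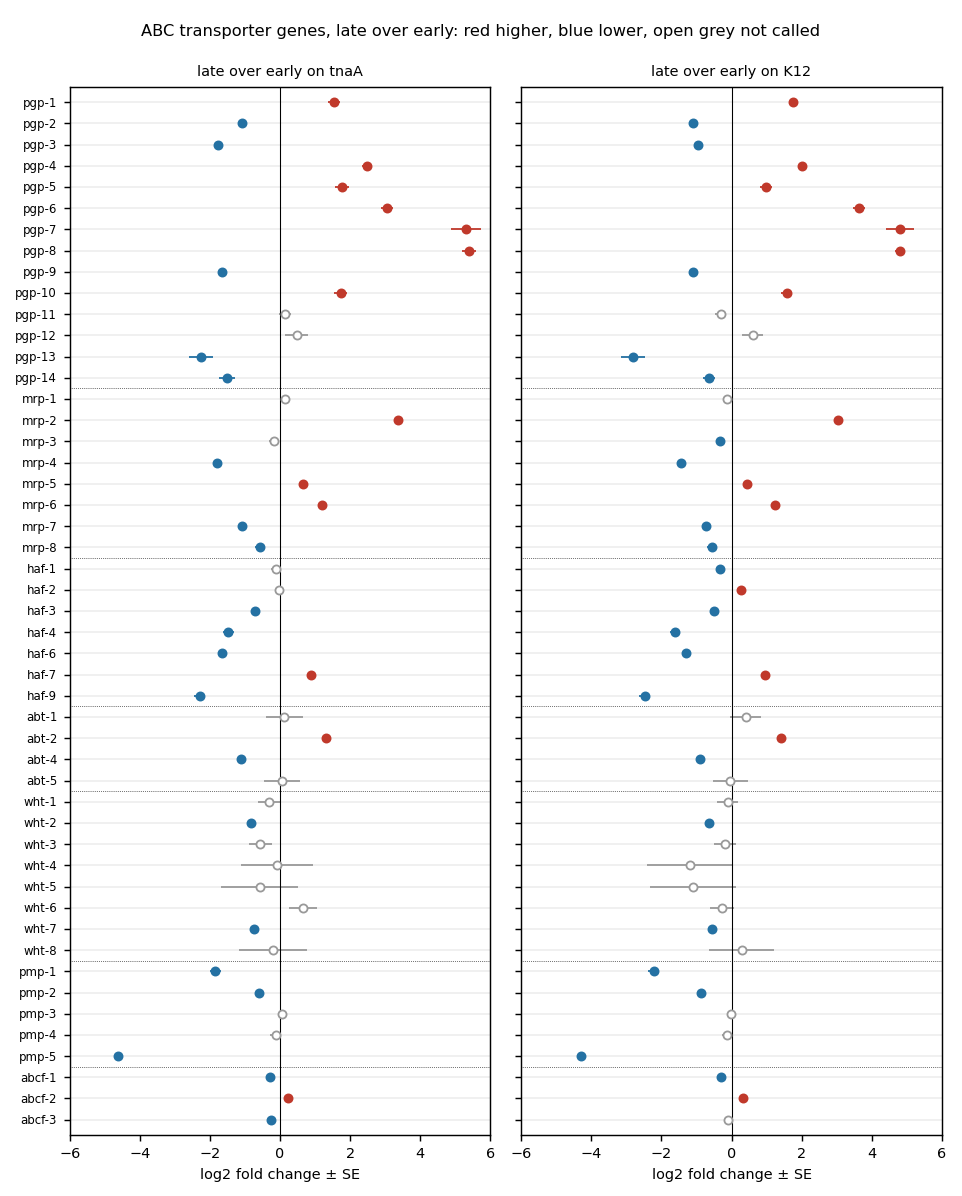
Log2 fold change with standard error of the 49 tested ABC genes for late over early worms on tnaA and on K12. The genes pgp-6, pgp-7, pgp-8 and mrp-2 lie above 3 in both panels, and pmp-5 lies below −4 in both.

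The P-glycoprotein family split, with 7 genes higher and 5 lower of 14 on both bacteria. The gene pgp-8 had 34.8 and 32.3 CPM in late tnaA worms, against 0.775 and 0.816 CPM in early tnaA worms, and 35.2 and 31.5 CPM in late K12 worms, against 1.5, 0.801 and 1.25 CPM in early K12 worms. The log2 fold change on tnaA was 5.39 ± 0.19 (41.9-fold higher in late worms, adjusted p = 6.33e-11), and the gene was 28.1-fold higher on K12 (4.81 ± 0.15, adjusted p = 2.38e-11). No early library came near a late one.

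Its neighbours in a run of 4 adjacent genes rose too. The gene pgp-7 had 5.13 and 8.34 CPM in late tnaA worms, against 0.155 and 0.163 CPM in early tnaA worms, and 4.06 and 3.93 CPM in late K12 worms, against 0.0833, 0.16 and 0.156 CPM in early K12 worms. Its log2 fold changes were 5.30 ± 0.43 on tnaA and 4.81 ± 0.39 on K12, resting on 1 or 2 reads in each early library. The gene pgp-6 rose 8.25-fold on tnaA (3.04 ± 0.17) and 12.4-fold on K12 (3.64 ± 0.17), and pgp-5 by a log2 fold change of 1.76 ± 0.20 on tnaA and 0.98 ± 0.18 on K12. Thus all 4 genes of the run, pgp-5 to pgp-8, were called higher with age on both bacteria. Their sequences were not compared, and how reads matching more than 1 of the 4 genes were handled is not known. The split of reads among them is therefore uncertain.

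The other P-glycoprotein genes that rose were pgp-1, pgp-4 and pgp-10. The gene pgp-4 had 49.6 and 56.1 CPM in late tnaA worms, against 9.53 and 9.46 CPM in early tnaA worms, and 38.8 and 36.6 CPM in late K12 worms, against 8.83, 8.65 and 10.6 CPM in early K12 worms (2.47 ± 0.12 on tnaA and 2.01 ± 0.10 on K12). The gene pgp-10 rose by 1.73 ± 0.19 on tnaA and 1.58 ± 0.16 on K12.

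The falls in this family were in pgp-2, pgp-3, pgp-9, pgp-13 and pgp-14. The gut granule gene pgp-2 had 19.8 to 25.7 CPM in the late N2 libraries, against 46.6 to 50.4 CPM in the early ones (−1.10 ± 0.11 on tnaA and −1.09 ± 0.10 on K12). The gene pgp-13 had 1.06 and 0.721 CPM in late tnaA worms, against 4.96 and 3.92 CPM in early tnaA worms, and 0.515 and 0.545 CPM in late K12 worms, against 4, 3.53 and 3.89 CPM in early K12 worms (−2.26 ± 0.34 on tnaA and −2.82 ± 0.34 on K12). The gene pgp-9 fell on both bacteria (−1.65 ± 0.12 on tnaA and −1.10 ± 0.11 on K12). The gene pgp-14 fell on both bacteria (−1.52 ± 0.22 on tnaA and −0.63 ± 0.17 on K12). The pgp-14 call on K12 was lost without late K12 replicate 3 and with scaling by library size alone. The genes pgp-11 and pgp-12 were not called in any contrast. The gene pgp-12, known from the excretory cell, had an interval of −0.25 to 1.19 on tnaA and −0.07 to 1.26 on K12.

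The gene pgp-3 was the only ABC gene called in the test of whether the change with age differed between the bacteria. It had 7.01 and 7.31 CPM in late tnaA worms, against 23.8 and 24.5 CPM in early tnaA worms, and 9.78 and 10.2 CPM in late K12 worms, against 17.2, 21.6 and 19.9 CPM in early K12 worms. The fall was 3.38-fold on tnaA (−1.76 ± 0.13) and 1.96-fold on K12 (−0.97 ± 0.11), a difference of −0.78 ± 0.17 (adjusted p = 0.0459, interval −1.15 to −0.42). Over all genes, 2.41% were called in this test of the difference, 1.43% with a negative and 0.971% with a positive sign, and among the 49 ABC genes 1 negative and 0 positive. The call was kept in 8 of 19 alternatives, over all of which the difference lay between −0.86 and −0.70. It was lost without any single N2 library other than early K12 replicate 1, and without both early libraries rich in sperm transcripts it was −0.82 with no call (adjusted p = 0.122).

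Of the mrp genes, mrp-2 had 211 and 211 CPM in late tnaA worms, against 22.6 and 18.5 CPM in early tnaA worms, and 175 and 175 CPM in late K12 worms, against 19.6, 21.9 and 21.6 CPM in early K12 worms. It was 10.3-fold higher in late worms on tnaA (3.36 ± 0.08, adjusted p = 5.59e-12) and 8.3-fold higher on K12 (3.05 ± 0.07, adjusted p = 3.44e-12). Its neighbour mrp-1 was not called in any contrast, with intervals of −0.08 to 0.33 on tnaA and −0.33 to 0.05 on K12. The genes mrp-6 (1.20 ± 0.10 on tnaA and 1.25 ± 0.09 on K12) and mrp-5 (0.65 ± 0.06 and 0.43 ± 0.06) also rose.

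The gut granule gene mrp-4 was the mrp gene with the largest fall, with 123 and 123 CPM in late tnaA worms, against 420 and 441 CPM in early tnaA worms, and 163 and 153 CPM in late K12 worms, against 457, 433 and 396 CPM in early K12 worms (−1.81 ± 0.09 on tnaA and −1.44 ± 0.08 on K12). Falls were also called in mrp-7 (−1.08 ± 0.09 and −0.74 ± 0.08) and mrp-8 (−0.58 ± 0.15 and −0.56 ± 0.13). The gene mrp-3 fell on K12 (−0.32 ± 0.12), a call lost in 9 of 19 alternatives, among them DESeq2 and the fits without early K12 replicate 1 or 2 or late K12 replicate 3.

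Of the haf genes, haf-9, which acts with haf-4 in gut granules, had the largest fall. It had 8.37 and 6.8 CPM in late tnaA worms, against 39.5 and 36.6 CPM in early tnaA worms, and 7.2 and 5.99 CPM in late K12 worms, against 41.1, 37.1 and 32.6 CPM in early K12 worms (−2.30 ± 0.16 on tnaA and −2.48 ± 0.15 on K12). The gene haf-4 fell on both bacteria (−1.48 ± 0.16 on tnaA and −1.61 ± 0.14 on K12). Falls were called on both bacteria in haf-6 (−1.66 ± 0.12 on tnaA and −1.31 ± 0.11 on K12) and haf-3 (−0.71 ± 0.08 and −0.51 ± 0.07), and haf-7 rose (0.88 ± 0.12 and 0.96 ± 0.11). On K12, haf-1 fell (−0.32 ± 0.12) and haf-2 rose (0.26 ± 0.06). The haf-2 call was lost without late K12 replicate 3, and that of haf-1 in 11 of 19 alternatives, among them DESeq2 and the fits without either late K12 library or without early K12 replicate 1 or 2.

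The ABC genes pgp-2, mrp-4, haf-4 and haf-9, put together here for their known gut granule roles after their values were seen, were each lower in late worms on both bacteria. Since the values were known, their common direction is no test of gut granule genes. Over all genes, 36.3% were lower on tnaA and 36.7% on K12. The 14 listed genes of gut granule formation had no such common direction, with 5 higher and 4 lower on tnaA and 4 higher and 6 lower on K12. Examples were apb-3 (0.58 ± 0.05 on tnaA and 0.52 ± 0.05 on K12), a subunit of the adaptor complex that sorts granule proteins, and glo-3 on K12 (1.05 ± 0.23).

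Of the pmp genes, pmp-5 was the ABC gene with the largest fall. A relative of human ABCD4, which takes part in vitamin B12 export from lysosomes in human cells, it had 4.42 and 3.71 CPM in late tnaA worms, against 110 and 94.8 CPM in early tnaA worms. It had 4.86 and 6.23 CPM in late K12 worms, against 111, 113 and 101 CPM in early K12 worms. It was 24.6-fold lower in late worms on tnaA (−4.62 ± 0.13, adjusted p = 1.7e-11) and 19.5-fold lower on K12 (−4.29 ± 0.12, adjusted p = 9.05e-12), and all late libraries lay far below all early ones.

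All 12 genes of the vitamin B12 dependent pathways and their shunt were lower with age on both bacteria. Over all genes, 36.3% were lower on tnaA and 36.7% on K12. All 18 germline markers and all 12 body wall muscle markers were lower too. The shunt gene ech-6 fell on both bacteria (−2.43 ± 0.07 on tnaA and −2.12 ± 0.07 on K12). The methionine synthase gene metr-1, which uses vitamin B12, fell on both bacteria (−1.80 ± 0.06 on tnaA and −1.58 ± 0.05 on K12). In late tnaA against late K12 worms 3 of the 12 were lower, against 5.85% of all genes. The 3 were acdh-1 (−3.63 ± 0.79, adjusted p = 0.0161), ech-6 (−0.31 ± 0.07, adjusted p = 0.0228) and metr-1 (−0.24 ± 0.06, adjusted p = 0.0237). The late K12 libraries of acdh-1 lay far apart, as the gene had 1.09 and 2.51 CPM in late ahr-1 worms and 1.12 and 1.24 CPM in late tnaA worms, against 4.75 and 24.7 CPM in late K12 worms. In ahr-1 mutants acdh-1 (−2.98 ± 0.72, adjusted p = 0.00999) and mmaa-1 (−0.29 ± 0.08, adjusted p = 0.0203) were lower and pcca-1 higher (0.21 ± 0.06, adjusted p = 0.0166). The gene pmp-5 was lower in ahr-1 mutants, with 3.51 and 3.25 CPM in late ahr-1 worms, against 4.86 and 6.23 CPM in late K12 worms.

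The peroxisomal genes pmp-1 and pmp-2, which are neighbours, fell with age, pmp-1 with −1.85 ± 0.16 on tnaA and −2.22 ± 0.15 on K12 and pmp-2 with −0.61 ± 0.09 and −0.88 ± 0.08. The peroxisome list did not fall as a whole, with 7 higher and 5 lower of 16 on tnaA and 2 higher and 4 lower on K12. Examples were prx-13 on tnaA (1.08 ± 0.13), and prx-19, which fell on both bacteria (−0.86 ± 0.07 on tnaA and −0.54 ± 0.07 on K12).

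The gene pmp-3, which is commonly used as a reference gene for quantitative PCR in C. elegans and was singled out here after its values were seen, had 118 and 118 CPM in late ahr-1 worms, 120 and 121 CPM in late tnaA worms, 117 and 117 CPM in late K12 worms, 114 and 118 CPM in early tnaA worms, and 117 ± 1.8 CPM in early K12 worms. It was called in none of the contrasts, and its intervals for ageing were −0.06 to 0.16 on tnaA and −0.10 to 0.09 on K12. The evenness holds for TMM-scaled values. Without scaling beyond library size it had 133 to 141 CPM in late and 97 to 103 CPM in early libraries, and was called higher with age on tnaA (0.53, adjusted p = 4.19e-07) and on K12 (0.41, adjusted p = 1.55e-06). It was also called higher when genes under a mean of 5 CPM were left out (0.21 on tnaA and 0.11 on K12).

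With age, 2 of 4 tested abt genes and 2 of 8 wht genes were called on each of the bacteria. Over all genes, 72% were called on tnaA and 69.6% on K12. The abt and wht genes not called had low levels, with N2 group means of at most 3.16 CPM. Of the ABCA relatives, abt-2 had 70.1 and 68.9 CPM in late tnaA worms, against 27.5 and 29 CPM in early tnaA worms (1.30 ± 0.08), and 64.6 and 64.3 CPM in late K12 worms, against 23.8, 24.6 and 23.9 CPM in early K12 worms (1.42 ± 0.07). The gene abt-4 was lower with age (−1.12 ± 0.12 on tnaA and −0.91 ± 0.11 on K12), and abt-1 and abt-5 were not called. Of the ABCG relatives, wht-2 (−0.82 ± 0.09 on tnaA and −0.64 ± 0.08 on K12) and wht-7 (−0.74 ± 0.07 and −0.55 ± 0.06) fell. The other 6 wht genes were not called with age. Of these, wht-1, wht-3 and wht-6 had group means of 1.43 to 3.16 CPM and were called in none of the contrasts.

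Of the abcf genes, abcf-2 rose (0.23 ± 0.05 on tnaA and 0.33 ± 0.05 on K12), abcf-1 fell (−0.30 ± 0.06 and −0.29 ± 0.05) and abcf-3 fell on tnaA (−0.26 ± 0.06). These small changes depend on the scaling. With scaling by library size alone, the falls of mrp-8 (−0.11 on tnaA and −0.14 on K12) were no longer called. The same held for pmp-2 on tnaA (−0.14), and for haf-3 (−0.09) and pgp-14 (−0.21) on K12. Scaling by library size alone moved the median of all genes to 0.49 on tnaA and 0.38 on K12, and turned the sign of abcf-1 (0.18 on tnaA and 0.13 on K12), abcf-3 on tnaA (0.22), and mrp-3 and haf-1 on K12 (both 0.10). It gave 23 ABC genes higher and 16 lower on tnaA and 19 higher and 15 lower on K12, against 7840 and 3140 of all genes on tnaA and 7751 and 3035 on K12. With TMM scaling, all-gene calls were 5394 higher and 5498 lower on tnaA and 4974 and 5553 on K12.

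Markers of whole tissues moved with age as well. Intestine markers fell in 15 of 19 genes on both bacteria, while 3 rose on tnaA and 2 on K12. Their sums were 1830 to 1930 CPM in late tnaA worms, against 5650 to 6140 CPM in early tnaA worms. On K12 the sums were 1400 to 1670 CPM in late worms, against 5150 to 6020 CPM in early worms. Germline markers fell in all 18, with sums of 6410 to 6740 CPM in late tnaA worms, against 15900 to 16800 CPM in early tnaA worms, and 8550 to 9090 CPM in late K12 worms, against 15700 to 16800 CPM in early K12 worms. All 12 body wall muscle markers fell, and of 16 neuron markers 15 rose on tnaA and 13 on K12. Of 11 hypodermis markers tested, 6 rose and 3 fell on both bacteria. Of 12 sperm markers tested, 2 rose on both bacteria, and 7 fell on tnaA and 8 on K12. Over all genes, 35.6% were higher and 36.3% lower on tnaA, and 32.9% and 36.7% on K12. None of the intestine, germline, muscle and neuron markers was at 0 in any group. Their part in the ageing changes of the ABC genes was not tested.

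The 7 ABC genes with other symbols behaved in the same mixed way with age, 4 higher and 3 lower on both bacteria. The cell corpse engulfment gene ced-7 rose (0.64 ± 0.06 on tnaA and 0.61 ± 0.05 on K12). The mitochondrial transporter gene abtm-1 (1.02 ± 0.10 on tnaA) and abcx-1 (3.45 ± 0.40 on K12) rose as well, each on both bacteria. The ribosome recycling gene abce-1 fell (−0.62 ± 0.05 and −0.50 ± 0.05). In late worms abtm-1 was higher on tnaA than on K12 (0.32 ± 0.09, adjusted p = 0.0481) and abcx-1 lower in ahr-1 mutants than in N2 (−1.12 ± 0.36, adjusted p = 0.0361).

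Of 12 listed regulators of xenobiotic responses, 7 were higher and 3 lower with age on tnaA and 6 higher and 3 lower on K12, where 72% and 69.6% of all genes were called. They included the nuclear receptor genes nhr-114 (−1.97 ± 0.12 on tnaA and −2.52 ± 0.11 on K12) and nhr-49 (0.85 ± 0.05 and 0.56 ± 0.05). Between late groups, nhr-49 was higher on tnaA (0.27 ± 0.05, adjusted p = 0.011) and nhr-86 lower in ahr-1 mutants (−0.33 ± 0.11, adjusted p = 0.0431). In early worms none of the listed genes of these pathways was called between the bacteria.

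The authors' deposited table for the late bacteria gives K12 over tnaA and so runs the other way. It lists 1380 genes, among them 7 ABC genes, all of which were also called here. In it pgp-1 has a log2 fold change of 1.32, mrp-4 of 0.38 and pgp-5 of −0.44. The genes pgp-3, pgp-14, wht-7 and pmp-2, which were called here, are not in it. The authors' deposited table for late ahr-1 over N2 worms lists 2071 genes, among them 13 ABC genes. Of these, 12 were also called here, the exception being wht-5 (0.62 in the authors' deposited table). The sizes differ between the fits, most of all in genes with few reads. The authors' values were 0.54 for wht-4 and 0.67 for abt-5, against 3.25 and 1.75 here. The reason was not tested. The genes pgp-2, mrp-8, haf-1, haf-2, haf-3, haf-6, pmp-1 and pmp-5, which were called here, are not in it.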

How the data were processed

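RNA-seq of whole adult worms gave 1 library per sample. The authors deposited raw counts per gene for each library, for which the submitters' processing notes name Trim Galore, HTSeq 0.6.1p2 and STAR. Their settings, strand handling, build and annotation: not given in the sources used here. No coordinates are therefore printed. The tables hold 42048 genes and 2 summary lines, left out of library sizes: reads outside genes (6.14 to 14.8%) and ambiguous reads. Of the authors' own DESeq2 comparisons, 2 tables are deposited, whose columns include a log2 fold change and a p-value per gene. Their 8 columns of normalised values were not used.

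The tests used edgeR 4.0.16 under R 4.3.3. Genes kept by filterByExpr (minimum count 10, 15133 genes) were scaled with TMM and fitted with glmQLFit, 1 mean per group over all 11 libraries, with 6 residual degrees of freedom. The two-sided quasi-likelihood test had its p-values adjusted after Benjamini and Hochberg across the 15133 genes, and called means an adjusted p below 0.05. Errors of log2 fold changes are standard errors, intervals are 95%, and those of levels are SDs. The fit was tested on simulated data.

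Members, the 13 gene lists and the tests were chosen with earlier results of these data known. Named genes were pgp-1, up to 4 called members per family, direction and contrast with the smallest p, up to 3 called genes per list, and the 5 genes most like pgp-1. Other members are named so that all are accounted for, and pmp-3, wht-5 and sqt-3 were chosen after their values were seen. Levels per kb use exon lengths of Ensembl release 115 (WBcel235), which held 50 of the 51 symbols. The labels give biological replicates of pooled worms. Replicates varied beyond counting error, with a chi-square over degrees of freedom of 2.9 to 5.42, and floors cover counting error only, since reads carried no molecular identifiers. Deviations from group means had correlations of −0.282 to 0.0526 between same-numbered libraries. In a group of 2 libraries the deviations mirror each other, so these correlations cannot show whether the numbers pair libraries. Alternatives were other scalings, other filters, DESeq2 1.42.0, the compared groups alone, a replicate block, and leaving out libraries.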

Additional observations from a re-analysis of the deposited data

Results flagged for a closer look

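The change of pgp-3 with age differed between the bacteria by a test of the difference itself, with a log2 difference of −0.78 ± 0.17 (tnaA minus K12, edgeR adjusted p = 0.0459). Late tnaA libraries had 7.01 and 7.31 CPM and late K12 libraries 9.78 and 10.2 CPM, while early tnaA libraries had 23.8 and 24.5 CPM and early K12 libraries 17.2, 21.6 and 19.9 CPM. Both tnaA libraries lay below both K12 libraries in late worms and above all 3 in early worms, where the difference alone was not called (interval 0.08 to 0.52). Over the 19 alternatives the adjusted p ran from 0.00502 to 0.167, and 8 kept the call.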

How the results depend on the processing

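Leaving out 1 early K12 library at a time kept at least 2 libraries in each group. In late tnaA against late K12 worms these fits gave 3 to 5 ABC genes higher and 5 to 6 lower (7.9 to 11.1% of all genes called). Early tnaA against early K12 worms had 1 lower (0.0332 to 1.36%). In ahr-1 mutants 7 to 9 were higher and 12 to 14 lower (23.5 to 26.2%). Negative differences between the ageing changes numbered 0 to 1 (0.133 to 4.75%). The other single omissions left 1 library in a group. Calls were lost there too, as given above, and the share of all genes called moved as well. Over all single omissions the early pgp-1 value ran from −1.61 to −1.28 and the ageing difference of pgp-1 from −0.36 to −0.04. The early pgp-1 value was −1.71 without both early libraries rich in sperm transcripts, and −1.43 without a call with the compared groups alone, which then called 0 lower. DESeq2 called 3 lower on tnaA in late worms (1103 of all 15133 genes), 4 higher in ahr-1 mutants (1134) and 3 with a negative difference (585). With no filter, 2 were higher on tnaA in early worms, where 1.76% of all genes were called. In that fit 1 had a positive and 6 a negative difference (5.24% of all genes called), while the compared groups alone gave 6 negative (8.39%). Library size alone gave 23 higher with age on tnaA (72.6% of all genes called) and 0 negative differences (2.05% called). It turned the sign of abcf-1 (0.13 on K12 and 0.18 on tnaA), abcf-3 (0.22 on tnaA), mrp-3 (0.10 on K12) and haf-1 (0.10 on K12), as it moved the median of all genes. Without early K12 replicate 3 and early tnaA replicate 2 the ageing difference of pgp-1 was 0.07. Adding the replicate number as a block left 0 higher and 1 lower on tnaA in late worms, where 0.304% of all genes were called. It left 4 higher in ahr-1 mutants (19.8% of all genes called) and 0 negative differences (0.0661% called). Whether same-numbered libraries share a batch cannot be told from these data. Where no other reason is given, the cause was not tested. Depth limits the genes near 1 CPM, where 1 read stood for 0.0573 to 0.103 CPM.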
